A study of Mus musculus with 8 samples.

Results

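Dmbt1 and 8 other genes whose products coat or defend moist epithelial surfaces were followed through sorted mouse mammary cells: Dmbt1, Fcgbp, Pigr, Lcn2, Ltf, Muc1, Muc4, Wfdc2 and Slpi. These are 9 of the 49671 genes in the table, picked by name as secreted scavengers, mucins and antimicrobial proteins of luminal surfaces, with Dmbt1 included because its values in luminal cells of the DNp63 mice were already known to be high. All 9 were found, and all 9 were among the 16900 genes tested, each of them also when the group in which it was highest was left aside.

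The study sequenced RNA from mammary gland cells of female mice of mixed genetic backgrounds, as 8 libraries that make up 4 groups of 2. Cells with CD45, CD31 or CD140a on their surface (blood, endothelial and fibroblast markers) were gated out, and the remaining CD24+ cells were split into CD29low cells, called luminal here (40000 cells a library), and CD29high cells, called basal here (5000 cells a library). A luminal and a basal group came from CD1 mice. GFP+ cells made up the remaining luminal and basal group, and came from K8rtTA/TetOCre/Rosa26-DNp63-IRES-GFP mice, called DNp63 here, in which a doxycycline-dependent activator under the promoter of Krt8, a luminal keratin, switches on Cre, which releases ΔNp63 and GFP from the Rosa26 locus. ΔNp63 is the p63 isoform of basal epithelial cells. Age, the induction schedule and the number of animals behind a library were not given in the sources used here. Mouse line, transgenes, induction and the GFP gate all differ between the CD1 and the DNp63 groups and cannot be told apart. The labels do not state whether separate animals gave the 2 libraries of a group, so p-values measure only the spread between these libraries, which may be technical.

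Moist epithelia are protected by a layer of secreted and membrane-bound proteins. Mucins form the coat itself, the polymeric immunoglobulin receptor carries IgA through the cell into the lumen, scavenger proteins bind and clump microbes, and small proteins such as lactoferrin and lipocalin 2 withhold iron. In the mammary gland, luminal cells line the ducts and alveoli and release such proteins together with the caseins, whereas basal cells lie outside them, contract, and have no contact with the lumen.

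Stretches upstream of the start sites of 4 members are shown first, because these are the places where a DNA-binding protein could be looked for in genes that were lower together. RefSeq promoter windows (GRCm38.p6) matched 8 of the 9 members, all but Dmbt1. Ltf lies on chr9:111019042-111019270 (plus strand, 22 to 250 bases before the start), Muc1 on chr3:89228806-89229055 (plus strand) and Pigr on chr1:130826434-130826683 (plus strand). Slpi, the member that was higher in basal cells, lies on chr2:164356508-164356757 (minus strand). The last 3 windows are the 250 bases before the RefSeq start, which for Muc1 was not the start of a GENCODE M21 transcript. Each is written 5′ to 3′, and capitals mark a match to AGGAAG, the core bound by ETS family proteins, which among these windows is found in Ltf.
Ltf: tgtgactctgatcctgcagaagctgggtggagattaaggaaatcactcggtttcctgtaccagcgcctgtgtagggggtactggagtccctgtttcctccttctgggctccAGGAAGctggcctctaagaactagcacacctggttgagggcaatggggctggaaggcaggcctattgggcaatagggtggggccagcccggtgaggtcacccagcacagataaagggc
Muc1: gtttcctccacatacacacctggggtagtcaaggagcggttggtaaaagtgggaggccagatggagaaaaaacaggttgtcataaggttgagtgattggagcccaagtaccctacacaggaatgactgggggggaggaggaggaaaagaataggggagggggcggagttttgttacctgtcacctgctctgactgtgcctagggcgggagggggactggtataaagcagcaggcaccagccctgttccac
Pigr: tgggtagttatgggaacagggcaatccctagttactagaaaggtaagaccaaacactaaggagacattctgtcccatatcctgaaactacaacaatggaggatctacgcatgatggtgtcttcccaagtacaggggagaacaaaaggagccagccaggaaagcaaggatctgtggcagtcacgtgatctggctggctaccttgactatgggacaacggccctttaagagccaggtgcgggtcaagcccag
Slpi: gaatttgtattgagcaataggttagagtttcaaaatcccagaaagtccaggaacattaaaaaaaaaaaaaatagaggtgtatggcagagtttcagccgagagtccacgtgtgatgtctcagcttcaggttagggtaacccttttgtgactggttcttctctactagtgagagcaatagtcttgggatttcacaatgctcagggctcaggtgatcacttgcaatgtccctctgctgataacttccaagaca
The AGGAAG core, searched on both strands, occurred in 4 of the 8 member windows (Fcgbp, Lcn2, Ltf and Wfdc2) and in 29.5% of 32851 promoter windows of the same length. Of the 250 bases searched in each window, 197 in Lcn2, 146 in Wfdc2 and 21 in Ltf lie in annotated exons of the same gene. The Ltf stretch shown above leaves those 21 bases out. In Ltf the match lies 134 to 139 bases before the start. TTCNNNGAA, the core of a STAT site, occurred in 0 of 8 member windows and in 7.02% of all windows. An NF-kB element, searched as GGG and TTCC with 3 free bases between them, occurred in 0 of 8 and in 4.65%. A paired p63 core, searched as CATG repeated after 6 free bases, occurred in 0 of 8 and in 0.49%. All 4 motifs were searched on both strands, and none of the other 3 motifs matched a member window, so no matches of different motifs overlapped there. These are letter matches in short windows and no measurement of binding.

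Levels are given as deposited, in reads per 20000000 reads of a library. Each library rested on 4136994 to 7206725 reads assigned to genes, so 1 read is worth 2.7752 to 4.8344 on this scale. The labels were first checked against known genes. Trp63, the gene that encodes ΔNp63, had values of 61 and 45 in CD1 luminal cells against 1297 and 1460 in DNp63 luminal cells, and the difference of 4.46 ± 0.18 (SE) on the log2(value + 8) scale passed the limma test (adjusted p = 2.17e-05). In the basal gate it stood at 5457 and 7079 in CD1 and at 8088 and 8306 in DNp63. Of the 13 luminal markers checked all 13 were called lower in the basal gate of CD1 mice, and of the 12 basal markers 11 were called higher. The basal gate also held RNA of other cells in both lines: 10 endothelial markers summed to 36194 to 52322 in the basal libraries and 1003 to 1631 in the luminal ones, 7 pericyte markers to 17607 to 24007 against 4224 to 5878, and 7 adipocyte markers to 14743 to 25791 against 396 to 650. Most of the adipocyte sum in the basal libraries was Fabp4, at 13967 to 21865, while Adipoq was at 37 to 160 there. Most of the pericyte sum in the luminal libraries was Notch3, at 3757 to 5255, against 2959 to 4416 in the basal ones. Between the CD1 gates 7 of 7 adipocyte and 6 of 7 pericyte markers were called higher in basal cells. Pecam1, which encodes CD31, was at 4980 to 8163 in the basal libraries, although CD31 had been gated against. RNA of other cells was not confined to the basal gate. In the luminal gate 8 fibroblast markers summed to 9155 and 44193 in CD1 and to 16994 and 9824 in DNp63 libraries. The part of all these cells in the results was not tested. Because the data are bulk, fewer cells of a type and less RNA per cell cannot be told apart.

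Dmbt1 encodes a large secreted glycoprotein with repeated scavenger receptor cysteine-rich domains that binds bacteria and viruses in saliva, tears and the airway. The gene (ENSMUSG00000047517) spans chr7:131032053-131121630 on the plus strand of GRCm38. In luminal cells its value was 43 and 60 for CD1 against 26146 and 55841 for DNp63 mice. Basal cells of CD1 mice had 28 and 16, and those of DNp63 mice 342 and 2263. The DNp63 luminal libraries were by far the highest of the 8, the DNp63 basal libraries came next, and none of the 4 groups overlapped another. The low values rest on few reads. CD1 luminal cells gave 12 and 16 Dmbt1 reads and CD1 basal cells 6 and 4, whereas DNp63 luminal cells gave 9421 and 14272 and DNp63 basal cells 81 and 468. The exact 95% Poisson intervals of the values, which cover counting error only, ran from 22 to 96.3 over the CD1 luminal libraries and from 4.35 to 59.8 over the CD1 basal libraries, and the intervals of single libraries of these groups overlapped. The intervals of the DNp63 basal libraries were 271 to 424 and 2060 to 2480.

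The means were 40993.5 ± 21000 (SD, n = 2) in DNp63 luminal and 51.5 ± 12 (SD, n = 2) in CD1 luminal cells, a ratio of 796, or a log2 difference of 9.29 ± 0.73 (SE). Since Dmbt1 was chosen for this difference, it is given without a test. Among all genes ranked by value, Dmbt1 ranked 49 and 16 in DNp63 luminal cells but 13541 and 12875 in their CD1 counterparts. It alone made up 36.4% and 54.4% of the summed value of the 9 members in the DNp63 luminal libraries, against 0.038% and 0.0835% in the CD1 luminal ones. The sum itself was 0.565% and 0.359% of the CD1 luminal libraries and 0.359% and 0.513% of the DNp63 luminal libraries, so the 2 groups overlapped in the total while the part of Dmbt1 in it differed. In basal cells the sum was 0.142% and 0.0946% of the library in CD1 and 0.089% and 0.0691% in DNp63.

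**Figure D1:**
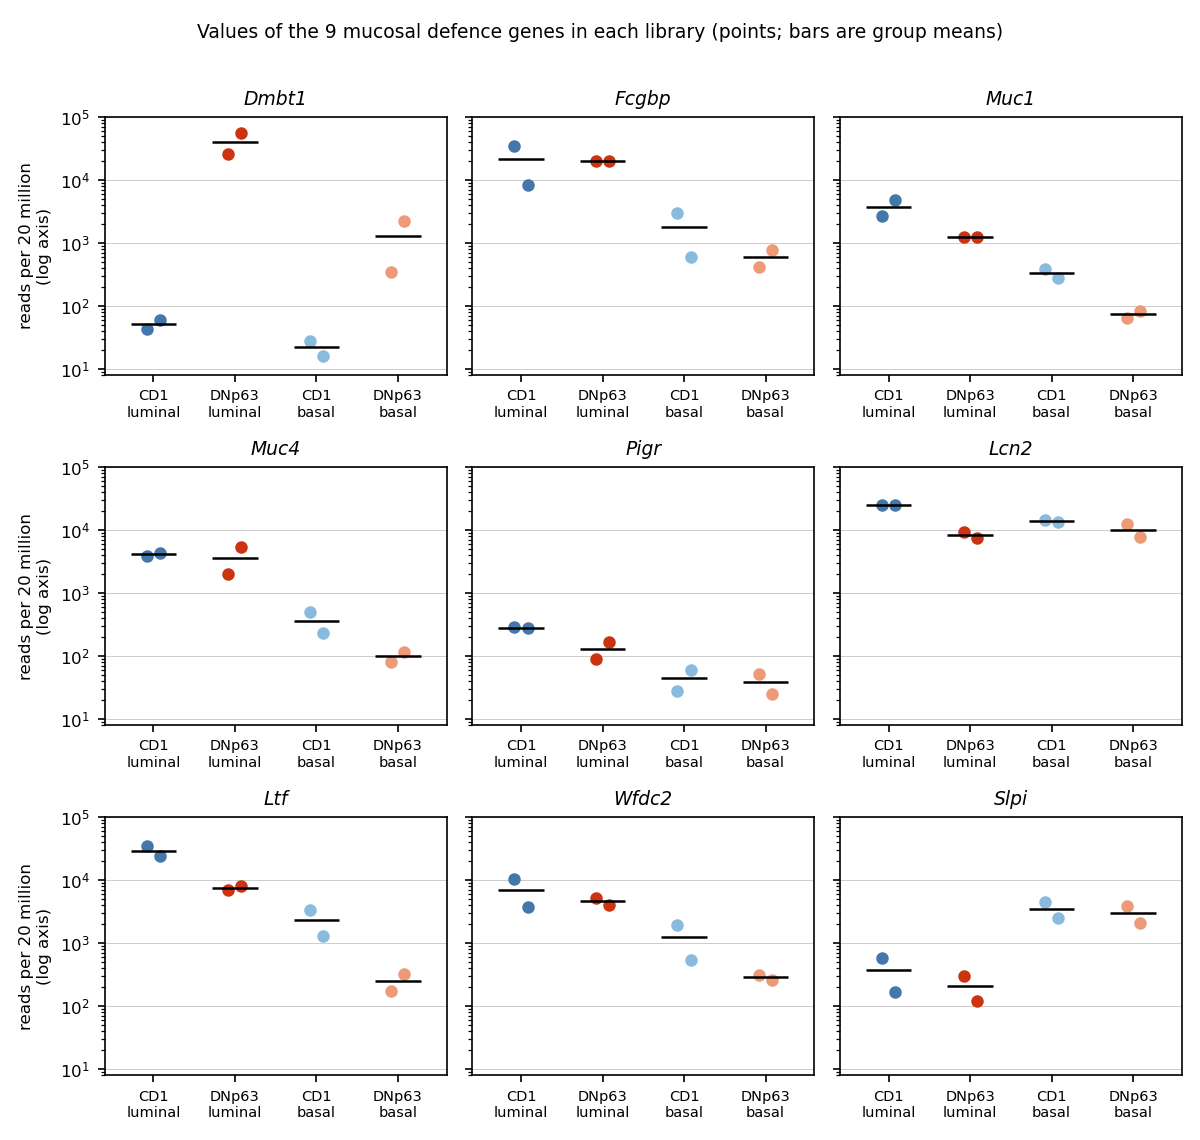
Values of the 9 genes (reads per 20000000, log axis) in each library, by group. Points are the 2 libraries of a group and bars the group mean. Dmbt1 is at 26146 and 55841 in DNp63 luminal libraries, against 43 and 60 for CD1 mice, and Slpi is the member with its higher values in basal cells.

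The basal gate compares Dmbt1 between libraries other than those in which it was picked. The spread used in its test was still pooled over all 8 libraries, the luminal ones included. There the mean was 1302.5 ± 1360 (SD, n = 2) in DNp63 and 22 ± 8.49 (SD, n = 2) in CD1 cells, a ratio of 59.2. The log2 difference of 4.91 ± 0.73 (SE) passed the limma test (adjusted p = 0.0296), and both DNp63 libraries lay above both CD1 libraries. Fitted on the 2 basal groups alone, the difference was 4.94 ± 0.77 (SE, adjusted p = 0.0448 by limma). The call depended on single libraries. Without the second DNp63 basal library, which held 2263 against 342 in the first, the difference was 3.56 (adjusted p = 0.0534). It was also lost without the first or the second CD1 basal library (adjusted p = 0.178 and 0.162), with no filter on low values (0.0999) and with limma voom on recovered reads (0.475), in a range of 4.93e-05 to 0.475 over the alternatives and with a positive difference in every one of them. The 8 fibroblast markers summed to 68930 and 92152 in the DNp63 basal and to 16809 and 46320 in the CD1 basal libraries. Of these 8 markers 0 were called by limma, with 3 at an unadjusted p under 0.05, and limma voom called 0. The 12 macrophage and lymphocyte markers summed to 1637 and 4057 in the DNp63 basal and to 2308 and 2170 in the CD1 basal libraries, with 0 of 9 tested called by limma or limma voom and 0 at an unadjusted p under 0.05. In the luminal gate they summed to 1302 and 2193 in DNp63 and to 1156 and 1643 in CD1 libraries. Their largest member, Cd74, was at 637 and 2843 in DNp63 basal and at 519 and 1339 in DNp63 luminal libraries. It was thus higher in the same library of each DNp63 pair as Dmbt1. In CD1 luminal libraries Cd74 (522 and 782) had the order of Dmbt1, and in CD1 basal ones (861 and 967) the opposite order. Ptprc, Csf1r, Adgre1, Fcer1g and Itgax went the same way as Cd74 in both DNp63 pairs. Cd68 and C1qa went the other way in both, and Cd3e, Cd79a, Igkc and Ms4a1 were mixed. Of these 12 markers Ms4a1 was at 0 in all libraries except the first DNp63 basal one, at 9. The part of both marker lists in the Dmbt1 result, and in the other differences between the basal groups, was not tested.

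The basal level of Dmbt1 was also expressed as a share of its luminal level and set beside the same share of luminal genes. Dmbt1 in DNp63 basal cells stood at 3.18% of its DNp63 luminal mean, with library ratios from 0.612% to 8.66%. In the same groups Krt8 stood at 9.02%, Krt18 at 5.73%, Krt19 at 4.5% and Epcam at 13.1%, all of them luminal epithelial genes. The Dmbt1 share was thus below that of these 4 genes by the means, with the upper library ratio within their span. These 4 are part of the 13 luminal markers, whose median log2 difference between the DNp63 gates was -4.09. Among the 13 the largest fall was that of Cldn4, -4.89 ± 0.13 (SE), against -5.39 ± 0.73 for Dmbt1. Of the members, Fcgbp (2.92%) and Muc4 (2.69%) had smaller shares than Dmbt1 in these groups, and the rest had larger ones. In CD1 cells the basal share of Dmbt1 was 43.1%, from 4 to 16 reads a library. The part of luminal RNA in the basal values was not tested.

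Markers of other tissues known for Dmbt1 and its companions were looked up as well. Of 14 salivary acinar markers, summing to 3733 to 8338 in CD1 luminal and to 1920 to 4534 in DNp63 luminal libraries, nearly all of the signal was Aqp5, a water channel, at 8191 and 3609 and at 1771 and 4387. Bpifa2 and Pip, secreted salivary proteins, were at 0 in all 8 libraries. The 12 neutrophil markers summed to 180 to 224 in CD1 luminal and 47 to 72 in DNp63 luminal libraries, and to 75 to 123 in basal libraries, with Ly6g at 0 in all 8. Neutrophils store lactoferrin and lipocalin 2, whose values in the luminal libraries ranged from 7091 to 34702. Dmbt1 lies within the span of Fgfr2, which is on the minus strand and shares 0 exon bases with it. Fgfr2 was at 9078 and 13433 in CD1 luminal and at 13282 and 13370 in DNp63 luminal libraries.

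Fcgbp, which encodes a large mucin-like protein of goblet cell secretions, was at 35043 and 8302 in CD1 luminal and at 20076 and 20467 in DNp63 luminal libraries, so the groups overlapped (difference 0.19 ± 0.77 SE). The first CD1 library of each gate was the higher one, by 4.22 times in luminal and 4.94 times in basal cells. In basal cells Fcgbp was at 2962 and 599 in CD1 and at 409 and 774 in DNp63, again overlapping (difference -1.25 ± 0.77, adjusted p = 0.618 by limma). Pigr, the receptor that carries IgA to the lumen, was at 284 and 275 in CD1 luminal and at 89 and 169 in DNp63 luminal libraries, which did not overlap (difference -1.19 ± 0.46 SE). It was at 28 and 60 in CD1 basal and at 51 and 25 in DNp63 basal libraries (difference -0.18 ± 0.46, adjusted p = 0.938 by limma).

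The genes of both iron-withholding proteins had lower RNA values in DNp63 luminal than in CD1 luminal libraries. Ltf, which encodes lactoferrin, an iron-binding protein of milk, was at 34702 and 24531 in CD1 luminal and at 7091 and 8045 in DNp63 luminal libraries, a log2 difference of -2.01 ± 0.41 (SE). In the basal gate Ltf was at 3370 and 1322 in CD1 and at 173 and 329 in DNp63, and the difference of -3.12 ± 0.41 passed the limma test (adjusted p = 0.0156). Ltf was thus lower in the DNp63 libraries of both gates, with no overlap in either. Lcn2, whose product binds bacterial siderophores, was at 25576 and 25428 in CD1 luminal and at 9469 and 7423 in DNp63 luminal libraries, a difference of -1.66 ± 0.21 (SE). In basal cells it was at 14705 and 13354 in CD1 and at 12509 and 7842 in DNp63, and that difference of -0.52 ± 0.21 did not pass (adjusted p = 0.399 by limma), although the libraries did not overlap.

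Of the membrane mucins Muc1 had lower values in DNp63 cells of both gates, and Muc4 was not called in the basal gate. Muc1, a mucin of the luminal surface of glandular cells, was at 2685 and 4853 in CD1 luminal and at 1252 and 1241 in DNp63 luminal libraries, a difference of -1.59 ± 0.28 (SE). In basal cells it was at 390 and 280 in CD1 and at 64 and 83 in DNp63, and the difference of -2.08 ± 0.28 passed (adjusted p = 0.0162 by limma). Muc4, a larger membrane mucin, was at 3848 and 4394 in CD1 luminal and at 2040 and 5314 in DNp63 luminal libraries, which overlapped. Muc4 was at 504 and 228 in CD1 basal and at 81 and 117 in DNp63 basal libraries, a difference of -1.74 ± 0.45 (adjusted p = 0.171 by limma). Muc4 shares 627 exon bases with Muc20 on the other strand, and since the strand setting of the counting was not given in the sources used here, reads of the 2 genes may not be fully separated. The calls of Ltf and Muc1 in the basal gate were lost without the first CD1 basal library (adjusted p = 0.092 and 0.177) and without either DNp63 basal library, and that of Muc1 also without the second CD1 basal library. They were also lost with no filter on low values (0.0661 and 0.0642) and with limma voom (0.0891 and 0.252).

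The genes of the WAP-domain proteins had opposite orders between the gates. Wfdc2, a small secreted protein of airway and reproductive tract epithelium, was at 10365 and 3809 in CD1 luminal and at 5301 and 4070 in DNp63 luminal libraries, the DNp63 values lying between the CD1 ones. It was at 1928 and 543 in CD1 basal and at 312 and 262 in DNp63 basal libraries (difference -1.83 ± 0.57, adjusted p = 0.253 by limma). Slpi, which encodes an inhibitor of neutrophil elastase, was at 586 and 167 in CD1 luminal and at 297 and 122 in DNp63 luminal libraries. In basal cells Slpi was at 4588 and 2520 in CD1 and at 3874 and 2128 in DNp63, overlapping (difference -0.26 ± 0.60, adjusted p = 0.929 by limma). Slpi values were therefore high in the 4 basal libraries of both lines and low in the 4 luminal ones.

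**Figure D2:**
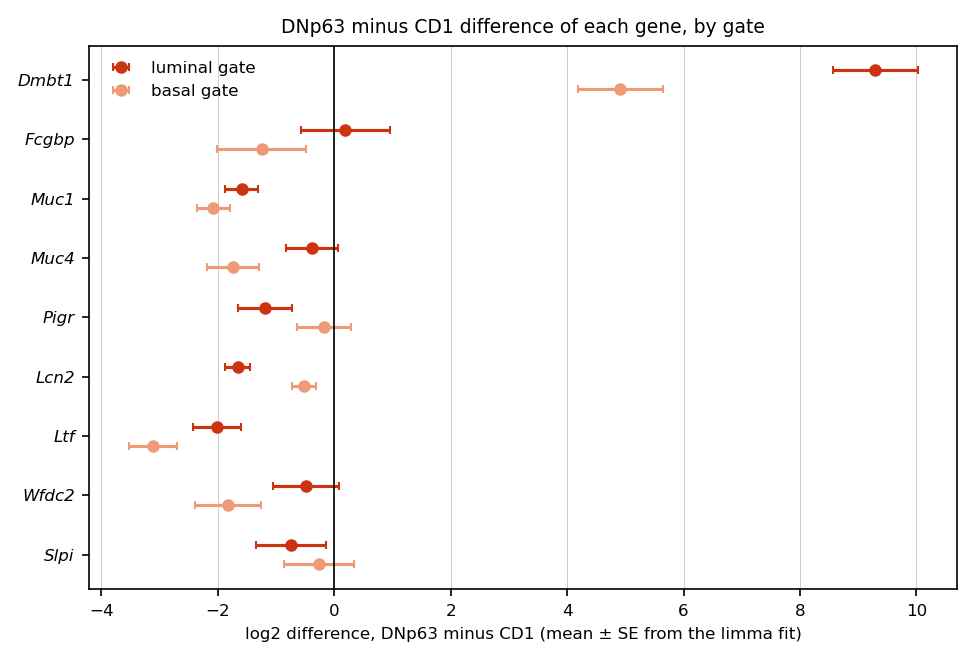
Log2 difference of DNp63 minus CD1 for each gene in the luminal and in the basal gate, with the SE of the limma fit as bars. Dmbt1 lies far to the right at 9.29 and 4.91, and Ltf and Muc1 lie left of 0 in both gates.

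Counted together, 1 of the 9 members was higher in DNp63 basal than in CD1 basal cells (Dmbt1), 2 were lower (Ltf and Muc1) and 6 were not called. Over all genes tested 0.716% were called in that comparison, 0.195% higher and 0.521% lower. Without overlap between libraries were 1 higher member (19.8% of all genes) and 5 lower members (22.8% of all genes), and the median difference was -1.25 for the members and -0.04 for all genes tested. In the luminal gate, from which Dmbt1 was picked, 1 member was higher without overlap (28.3% of all genes), 4 were lower without overlap (Pigr, Lcn2, Ltf and Muc1; 18.0% of all genes) and 4 overlapped. The median there was -0.75 for the members and 0.01 for all genes. Of all genes, 4.44% were called in the luminal gate, 2.66% higher and 1.78% lower, and nothing is read from these for the members.

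Within CD1 mice, of the 8 members other than Dmbt1, 7 were lower in basal than in luminal cells and 1 was higher (Slpi). Dmbt1 is given here without a test, because the CD1 luminal libraries belong to the comparison in which it was picked. Of all genes tested 44.3% were called, 20.1% lower and 24.2% higher, so calls in this comparison were common. Without overlap, 8 members, Dmbt1 included, were lower (34.5% of all genes) and 1 was higher (36.8% of all genes). The largest falls were those of Ltf (-3.80 ± 0.41 SE, adjusted p = 0.00014 by limma), Fcgbp (-3.68 ± 0.77, 0.00476), Muc4 (-3.58 ± 0.45, 0.000324) and Muc1 (-3.43 ± 0.28, 3.14e-05). Wfdc2 fell by 2.62 on the log2 scale (adjusted p = 0.00563) and Pigr by 2.55 (0.00211). The size of some falls depended on single libraries, although the calls were kept. Fcgbp was at -2.64 and -4.71 without the first and the second CD1 luminal library and at -4.80 and -2.56 without the first and the second CD1 basal library. In the same order Wfdc2 was at -1.89, -3.33, -3.50 and -1.74. Ltf was at -4.44 and -3.15 without the first and the second CD1 basal library. The fall of Lcn2 was the smallest of the called ones (-0.88 ± 0.21, adjusted p = 0.0087), and it missed the threshold without the second CD1 basal library (adjusted p = 0.0551). The difference of Dmbt1 was -1.02 ± 0.73 (SE), at the read numbers given above. Slpi rose by 3.39 ± 0.60 (adjusted p = 0.00208 by limma), or by 4.28 and 2.52 without the first and the second CD1 luminal library. The sums of the endothelial, pericyte and adipocyte markers given above were higher in the same basal libraries. Their part in the Slpi result was not tested. The median was -2.62 for the 9 members and -0.01 for all genes tested.

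Expressed as a share of the luminal mean, 5 members besides Dmbt1 had smaller basal shares by the means in DNp63 than in CD1 mice. Over all pairs of libraries the ratios of the 2 lines overlapped for each of these 5, and the contrast was not tested for members. Between same-numbered libraries alone they overlapped for Muc1 but not for Ltf, Fcgbp, Muc4 and Wfdc2. The Dmbt1 share was 43.1% in CD1 (library ratios 26.7% to 65.1%) and 3.18% in DNp63 (0.612% to 8.66%), without overlap. Its CD1 share rests on 4 to 16 reads a library. The basal share of Ltf was 7.92% in CD1 and 3.32% in DNp63 cells, that of Fcgbp 8.21% and 2.92%, that of Muc4 8.88% and 2.69%, that of Muc1 8.89% and 5.86%, and that of Wfdc2 17.4% and 6.13%. The luminal keratin Krt8 moved the same way, from 17.5% to 9.02%, and 8 of the 13 luminal markers were called lower in DNp63 basal than in CD1 basal cells. The part of this in the lower member values was not tested. Pigr (15.8% and 29.5%) and Lcn2 (55.0% and 120%) went the other way, and Slpi stood at 945% and 1440%. Between the DNp63 gates, the members' log2 differences of basal minus luminal ran from -5.39 for Dmbt1, through -5.12 for Fcgbp, to 0.27 for Lcn2 and 3.88 for Slpi. No test is given for members in this comparison because it uses the libraries from which Dmbt1 was picked. In it 7 members were lower without overlap (42.9% of all genes), 1 higher (35.7%), and Lcn2 overlapped.

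**Figure D3:**
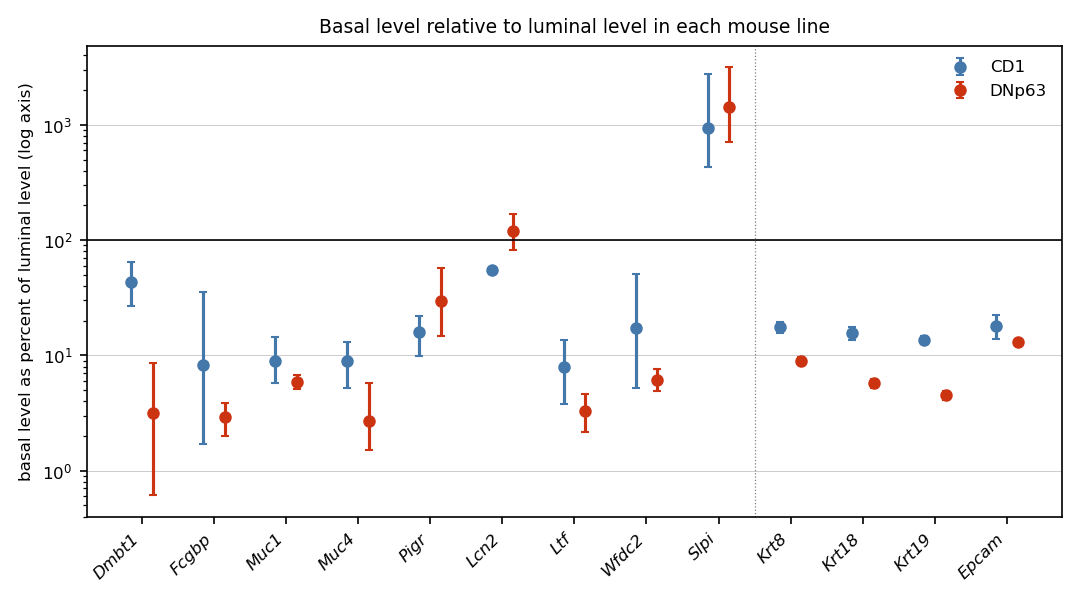
Basal level as a percent of the luminal level (log axis) in CD1 and DNp63 mice for the 9 members and, right of the dotted line, 4 luminal epithelial genes. Points are ratios of group means and bars run from the lowest to the highest ratio of single libraries. Slpi lies above 100% in both lines. The CD1 point of Dmbt1, at 43.1%, rests on 4 to 16 reads a library, and its DNp63 point is at 3.18%.

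Per kilobase of annotated exon, with the exons of all transcripts of a gene merged, the order of the members changed between groups. An expressed transcript may be shorter than the merged exons, which would understate its level, so the order of different genes is approximate. In CD1 luminal cells Lcn2 (9720 per kilobase), Ltf (8580) and Wfdc2 (6220) led. Ltf overlapped both of the others, while Lcn2 lay above Wfdc2 in both libraries. These were followed by Fcgbp (2060) and Muc1 (1610), which overlapped. Muc4 (351) and Slpi (319) overlapped as well, Pigr stood at 69.4, and Dmbt1 was last at 7.3. In DNp63 luminal cells Dmbt1 came first by the mean (5810), but its libraries of 3700 and 7910 overlapped those of Wfdc2 (4650 and 3570), which in turn overlapped Lcn2 (3610 and 2830). Ltf (2190), Fcgbp (1930) and Muc1 (531) followed without overlap, and Pigr was last (32). In CD1 basal cells Lcn2 (5350) and Slpi (3010) led without overlap, and Dmbt1 was last again (3.12). In DNp63 basal cells Lcn2 (3880) and Slpi (2540) overlapped at the top, and Dmbt1 (185) came after Wfdc2 by the mean. Its libraries of 48.5 and 321 overlapped those of Wfdc2 (252), Ltf (72.8) and Fcgbp (56.3). Lcn2 was thus the leading member by its mean in the 3 groups other than DNp63 luminal.

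Other genes of the same functions were taken from lists that hold none of the 9 members. Of 15 scavenger receptor and IgA transport genes 9 were tested, and 1 was lower in DNp63 luminal than in CD1 luminal cells. This was Scara5, a scavenger receptor that takes up ferritin, at 3784 and 4012 in CD1 and 950 and 349 in DNp63 luminal libraries (-2.80 ± 0.39 SE, adjusted p = 0.00643 by limma). Of these 9 genes 6 had an unadjusted p under 0.05 in that comparison, 3 higher and 3 lower in DNp63 cells, and limma voom called 2. Among those not called by limma were Cd163, a scavenger receptor with cysteine-rich domains like those of Dmbt1, and Igha, the IgA heavy chain. Cd163 was at 50 and 67 in CD1 and at 225 and 247 in DNp63 luminal libraries (1.83 ± 0.53, adjusted p = 0.105). Igha was at 0 and 75 and at 123 and 188 (2.59 ± 1.06, adjusted p = 0.253). Both had their higher values in the DNp63 luminal libraries. Lgals3bp (-0.77 ± 0.2 SE), Tmprss2 (-0.64 ± 0.45) and Ssc5d (-0.14 ± 0.58), of the same list, had lower means there and were not called either. In DNp63 basal against CD1 basal cells 0 of the 9 were called by limma or limma voom, with 4 at an unadjusted p under 0.05. Gp2, an IgA and bacteria-binding protein, and Umod, its kidney relative, were at 0 in all 8 libraries.

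Among 24 mucin and goblet cell genes 14 were tested, and 0 were called by limma or limma voom in DNp63 against CD1 cells of either gate, with 2 at an unadjusted p under 0.05 in each. Between CD1 gates 3 were higher and 4 lower in basal cells, the latter including Muc20 (-3.52 ± 0.29) and Muc15 (-3.10 ± 0.48), both membrane mucins. Fut2, a fucosyltransferase that decorates mucins, was higher in CD1 basal cells (4.49 ± 0.45). In this list the median difference was 0.13 between the luminal gates and -0.30 between the basal gates, against 0.01 and -0.04 for all genes.

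Among 28 antimicrobial and acute phase genes 16 were tested, and 2 were lower and 0 higher in DNp63 luminal than in CD1 luminal cells. Lbp, which presents bacterial lipopolysaccharide to its receptors, was at 1174 and 1516 in CD1 and at 236 and 380 in DNp63 luminal libraries (-2.18 ± 0.26 SE, adjusted p = 0.00317 by limma). S100a8, a subunit of the metal-binding calprotectin, was at 196 and 141 and at 17 and 32 (-2.51 ± 0.58, adjusted p = 0.0474). S100a8 is also on the neutrophil list and carried most of that list's value in CD1 luminal libraries. S100a9, the other subunit, was at 0 in all 4 luminal libraries. In the basal gate 0 of the 16 were called by limma or limma voom, with 2 at an unadjusted p under 0.05.

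Of 16 WAP-domain and protease inhibitor genes 10 were tested. In DNp63 against CD1 luminal cells 0 were called by limma or limma voom, with 1 at an unadjusted p under 0.05, and in the basal gate 1 was lower. This was Spint1, a membrane inhibitor of serine proteases (-1.22 ± 0.18 SE, adjusted p = 0.0227 by limma), and limma voom called 0 of the 10. Between CD1 gates 3 were higher in basal cells, among them Serpina3n, a secreted serpin (3.58 ± 0.66), and 5 were lower, among them Anxa1, an annexin (-2.21 ± 0.13). Of 14 airway and oviduct secretory genes 6 were tested, and 0 were called by limma or limma voom in DNp63 against CD1 cells of either gate, with 1 at an unadjusted p under 0.05 in each.

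Genes of the NF-kB and cytokine pathways, which are known inducers of Lcn2 and Pigr in other epithelia, were looked at next. Of 23 such genes 22 were tested, and 2 were called lower and 0 higher in DNp63 luminal than in CD1 luminal cells, with a median of -0.50 and 14 at an unadjusted p under 0.05. Socs3, a feedback inhibitor of cytokine signalling, was at 5929 and 7847 in CD1 and at 2884 and 2802 in DNp63 luminal libraries (-1.32 ± 0.16 SE, adjusted p = 0.00361 by limma). Nfkbiz, a nuclear cofactor of NF-kB at the Lcn2 promoter, was at 11499 and 14226 and at 7244 and 7790 (-0.83 ± 0.14, adjusted p = 0.0141). In the basal gate 0 of the 22 were called by limma or limma voom, with 6 at an unadjusted p under 0.05.

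Of 18 transcription factors of secretory epithelium 13 were tested, and 1 was higher and 1 lower in DNp63 luminal than in CD1 luminal cells. Grhl3, a grainyhead factor of surface epithelium, was at 32 and 19 in CD1 and at 195 and 302 in DNp63 luminal libraries (2.88 ± 0.52 SE, adjusted p = 0.0178 by limma). Creb3l1, a membrane-bound factor of secretory cells, was lower (-1.47 ± 0.24, adjusted p = 0.013). In the basal gate Klf5 was higher (0.76 ± 0.11, adjusted p = 0.0213) and Foxa1 (-1.92 ± 0.22, 0.00912) and Elf3 (-1.07 ± 0.18, 0.0423) were lower. Of 12 milk protein genes, which luminal cells make alongside lactoferrin, 9 were tested, and 8 were lower in DNp63 luminal and 7 in DNp63 basal cells than in the CD1 cells of the same gate, with medians of -4.12 and -4.74. Limma voom called 8 and 3 of them. Csn2, which encodes beta-casein, was at 22750 and 20234 in CD1 and at 73 and 423 in DNp63 luminal libraries (-6.90 ± 0.76, adjusted p = 0.00222).

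Likeness of pattern was measured over the 8 libraries as the root mean square difference between log2(value + 8) values. Each gene was centred on its own mean, so that a smaller number is a smaller difference. The measure was not scaled for the span of a gene, so genes with small differences between groups can lie near each other or near genes of opposite direction. The 8 genes nearest to Dmbt1 were Dnah11 (1.69), Drc1 (1.77), Slc5a7 (1.97), Armc3 (2.23), Gm36970 (2.25), Mns1 (2.26), Lrriq1 (2.30) and Cfap206 (2.32). Luminal values of Dnah11 were 8 and 75 in CD1 and 2265 and 3322 in DNp63 mice, and its basal values 28 and 16 in CD1 and 144 and 170 in DNp63 mice. Drc1 was at 0 and 4, at 431 and 763, at 5 and 0, and at 22 and 54 in the same order. That these genes were highest in both DNp63 luminal libraries follows from their choice by likeness to Dmbt1. In the DNp63 luminal libraries their levels were far below those of Dmbt1, whereas in CD1 libraries both were low. The nearest member to Dmbt1 was Fcgbp, at 4.04.

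**Figure D4:**
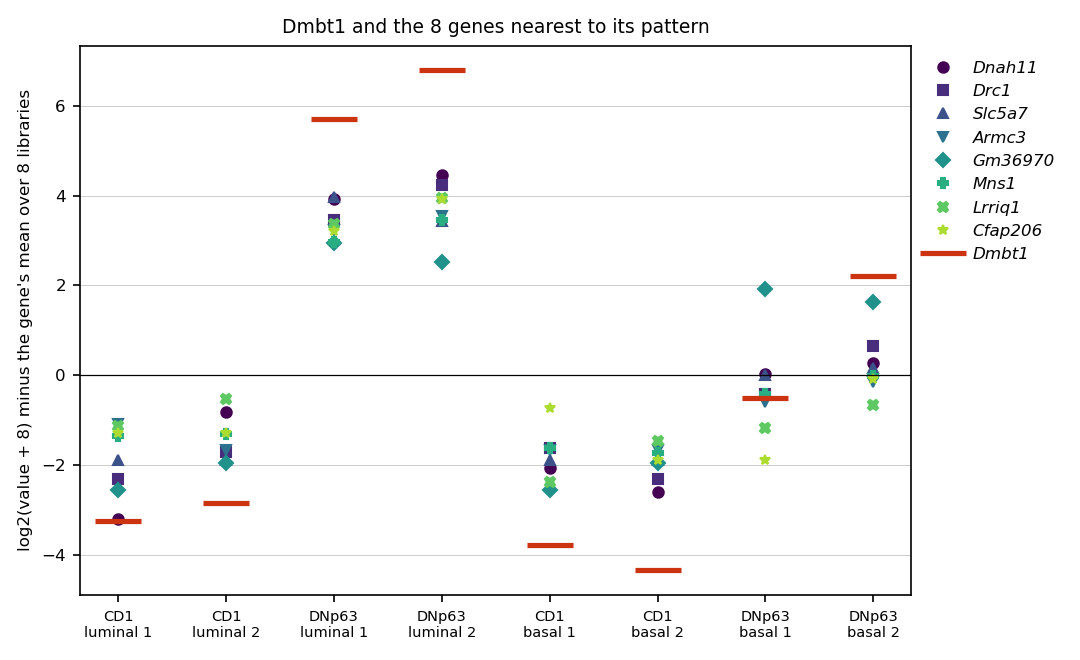
Centred log2(value + 8) in each of the 8 libraries for Dmbt1 (red bars) and the 8 genes nearest to its pattern (markers). All 9 genes are highest in the DNp63 luminal libraries, which for the 8 follows from their choice by likeness. Dmbt1 has the widest span, from 16 to 55841 in deposited values.

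The other members had nearer neighbours. Fcgbp and Wfdc2 were each other's nearest member (0.74), as were Ltf and Muc1 (0.67) and Pigr and Lcn2 (0.98). Slpi was 2.07 from its nearest member, Lcn2, although between the CD1 gates Slpi was higher in basal cells and Lcn2 lower. Over all tested genes the nearest to Fcgbp was R3hdml (0.55), to Pigr Epsti1 (0.30), to Lcn2 Irak3 (0.19), to Ltf Btn1a1 (0.61), to Muc1 Csn3 (0.26), to Muc4 Slc28a3 (0.37), to Wfdc2 Gdap1l1 (0.29) and to Slpi Ltbp2 (0.29). Csn3, which encodes kappa-casein, was at 32047 and 41253 in CD1 luminal and at 11060 and 17560 in DNp63 luminal libraries, and in the basal gate at 4876 and 4053 (CD1) and at 789 and 1054 (DNp63). Ltbp2, which encodes a matrix protein, was at 2741 and 1075, at 936 and 677, at 21320 and 9582, and at 17436 and 11502 in the same order. The closest of these pairs was Lcn2 with Irak3, a negative regulator of Toll-like receptor signalling, at 1135 and 1041, at 395 and 447, at 628 and 607, and at 473 and 349 in that order.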

How the data were processed

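RNA of sorted mammary cells was measured in 8 libraries. The submitters' processing notes name STAR, HTSeq and the build GRCm38 (mm10). Versions, annotation release and strand setting were not given in the sources used here. What the authors deposited is a score: reads brought to 20000000 a library, and rounded up, judged by the table's label and its values, so no count model was used. Dividing by the value of 1 read gave whole reads for 99.6% to 99.9% of values, against 20.7% to 36.0% by chance, and depths of 4136994 to 7206725 reads. That depth leaves low values, such as Dmbt1 in CD1 cells, resting on a few reads.

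Tested were the 16900 genes that reached a value of 40 in 2 or more libraries. Values were scaled by TMM (trims 30% and 5%), transformed to log2(value + 8), and fitted with limma 3.58.1 in R 4.3.3 with 4 group means and a trend on intensity (degrees of freedom: 4 residual, 4.69 prior). Tests were two-sided, and a Benjamini-Hochberg adjusted p under 0.05 over all genes was called. Fold changes of low genes are understated on this scale. Tables were made with pandas 2.3.3 in Python 3.11.15. The fit was also run on simulated reads with the same spread set for every gene, and nothing is read from this for the members.

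The members and lists were chosen with earlier results of these data known. Members carry p-values only between the CD1 gates (not Dmbt1) and between the basal gates. Named genes were the 9 members, up to 2 called genes in each direction per list and comparison with the largest differences and no overlap between libraries, the genes most like each member, and the lineage markers. Where only some of these were needed to describe a list, the rest were left out. Gp2, Umod, Aqp5, Bpifa2, Pip, Ly6g, S100a9, Cd163, Igha, Cd74, Ms4a1, Pecam1, Krt19, Epcam and Fgfr2 were added after their values were seen. The same holds for Lgals3bp, Tmprss2, Ssc5d, Ptprc, Csf1r, Adgre1, Fcer1g, Itgax, Cd68, C1qa, Cd3e, Cd79a, Igkc, Cldn4, Fabp4 and Notch3. Coordinates came from GENCODE M21. Alternatives were other pseudocounts (4 and 32), no filter or a minimum of 100, other scalings, limma voom on recovered reads, fits on the compared groups alone, replicate blocks, and leaving out each library.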

Additional observations from a re-analysis of the deposited data

How the results depend on the processing

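The count of genes called in CD1 basal against CD1 luminal cells (7493) and in DNp63 basal against DNp63 luminal cells (8323) stayed within 1.5 times in all 18 alternatives (5346 to 8606 and 5821 to 9337), and so did the 8 members called in the former (7 to 9, Dmbt1 counted). The other counts were less stable. For DNp63 basal against CD1 basal cells it was 121, and 45 with no filter on low values, 65 with limma voom, 203 with the replicate block and 3 to 190 with 1 library left out. For DNp63 luminal against CD1 luminal cells it was 751, and 442 with no filter, 40 with only the compared groups, and 142 to 984 with 1 library left out. For the interaction of gate and mouse line it was 58, and 116 with a pseudocount of 32, 10 with no filter, 22 with voom, 128 with the replicate block and 4 to 163 with 1 library left out. The 3 members called between the basal gates became 0 with no filter (limma, 6 at an unadjusted p under 0.05), 0 with limma voom (4 at an unadjusted p under 0.05), 4 with the replicate block, which added Wfdc2 (adjusted p = 0.0493), and 0 to 3 with 1 library left out, 0 without the first CD1 basal or the second DNp63 basal library. Deviations of same-numbered libraries correlated at 0.34 between the CD1 gates and 0.27 between the DNp63 gates, and at -0.01 to 0.04 across lines. The labels state no pairing, and the main fit used none. Whether same-numbered libraries of a line belong together was not tested. A replicate block within each mouse line, chosen after seeing the data, gave 677 calls between the basal gates, 1684 between the luminal gates, 502 in the interaction, and 7 members called between the basal gates. Pigr between the basal gates (-0.18) turned to 0.30 without the second CD1 basal and 0.24 without the second DNp63 basal library (leave-one-out range -0.66 to 0.30), and Slpi (-0.26) to 0.15 without the first CD1 basal and 0.17 without the second DNp63 basal library (range -0.69 to 0.17). The cause of these changes was not tested.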

Other observations

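The 2 libraries of a group differed more for some members than for others. The first CD1 library exceeded the second in both gates for Fcgbp (4.22 times in luminal and 4.94 times in basal cells), Wfdc2 (2.72 and 3.55 times), Slpi (3.51 and 1.82 times) and Ltf (1.41 and 2.55 times). Lcn2 differed by 1.01 and 1.1 times between the same libraries. In the DNp63 mice the second library was the higher one for Dmbt1, by 2.14 times in luminal and 6.62 times in basal cells, and for Muc4, by 2.6 and 1.44 times. Whether libraries of the same number came from the same animals was not given in the sources used here.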
